A study of Mus musculus with 3 samples.

Results

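Peaks found at 5 weeks only were the regions of accessible chromatin that were called in islet cells 5 weeks after Taf4 loss and in neither of the other 2 libraries of the study. They were taken from chromosomes 1 to 19 as the peaks of the 5 week list without a single shared base with any peak of the wild type (WT) or 1 week list. Of the 150230 peaks of the 5 week list, 61052 met this rule, or 40.6%. Among the 41698 peaks of the 5 week list with a -log10 q of 5 or more, called strong here, 2584 met it, or 6.20%. The 3 lists together held 347985 peaks. The members were chosen by the peak calls of the 3 lists and, for the strong ones, by the -log10 q, so counts and strengths of the members are a description of these lists and were not tested.

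Accessibility was measured by ATAC-seq, in which a transposase inserts sequencing adapters where DNA is not covered by nucleosomes, in cells dissociated from purified mouse islets of Langerhans. There was 1 library from WT mice, 1 from Taf4 KO mice at 1 week and 1 from Taf4 KO mice at 5 weeks, all of the strain written C5LBl6 in the labels. According to the study, adult mice with floxed Taf4 alleles carried a tamoxifen-inducible Cre recombinase driven by the Ins1 promoter, so that beta cells lost Taf4 and the other islet cells kept it. Whether the WT library came from mice that also carried Cre and received tamoxifen, and how many animals were pooled, is not given in the labels. No library was replicated, so each difference is between single libraries, and the Wilson 95% intervals reflect only how many peaks or genes were counted. Any difference in age, sex or batch between the libraries cannot be told apart from the genotype and time.

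Taf4 is a subunit of TFIID, the complex that recognises core promoters and helps RNA polymerase II to start transcription. Beta cells make insulin under the control of factors such as Pdx1, Nkx6-1, Nkx2-2, Mafa and Neurod1, which bind at promoters and at distal enhancers. Peaks away from promoters commonly mark enhancers or sites of CTCF, a zinc finger protein that binds a long DNA motif and anchors chromatin loops.

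The islet label was checked against promoter peaks of marker genes. Of the 9 beta cell markers, 9 had a promoter peak in the WT list, 8 at 1 week and 8 at 5 weeks. The lists differed in depth. The floor of the local background, that is the first percentile of the read background solved from the fold and p of each peak, lay at 3.66 reads for WT, 6.45 for 1 week and 9.38 for 5 weeks. The 5 week floor was 2.57 times that of WT, and the 1 week floor was 1.77 times. The 1 week list had 59240 peaks found in no other list, or 42.9% of its peaks, of which 299 were strong. The WT list had 11240, or 18.9%, of which 294 were strong. Positions throughout are on mm9, and fold and -log10 q are the values of the deposited 5 week list.

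The strongest members outside promoters are shown as the extremes of the list, not as typical members. The central 300 bases of the 3 with the highest -log10 q are given, read from the reference assembly NCBIM37 on the plus strand and named by the nearest protein-coding gene. Capitals mark matches to short motifs, here the AP-1 motif (TGANTCA) and the forkhead motif (TGTTTAC) on either strand.
H2-M10.4: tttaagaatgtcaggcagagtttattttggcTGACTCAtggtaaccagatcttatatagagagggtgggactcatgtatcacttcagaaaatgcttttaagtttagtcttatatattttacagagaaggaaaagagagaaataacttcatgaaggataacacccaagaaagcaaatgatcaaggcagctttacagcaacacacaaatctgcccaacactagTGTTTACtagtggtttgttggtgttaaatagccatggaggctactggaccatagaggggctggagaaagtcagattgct
Akr1c21: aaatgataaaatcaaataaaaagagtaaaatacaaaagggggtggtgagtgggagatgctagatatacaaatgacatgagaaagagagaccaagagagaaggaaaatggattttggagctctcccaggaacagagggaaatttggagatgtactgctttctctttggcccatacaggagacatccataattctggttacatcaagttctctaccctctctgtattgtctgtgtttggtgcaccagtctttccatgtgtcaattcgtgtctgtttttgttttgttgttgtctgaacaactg
Maml2: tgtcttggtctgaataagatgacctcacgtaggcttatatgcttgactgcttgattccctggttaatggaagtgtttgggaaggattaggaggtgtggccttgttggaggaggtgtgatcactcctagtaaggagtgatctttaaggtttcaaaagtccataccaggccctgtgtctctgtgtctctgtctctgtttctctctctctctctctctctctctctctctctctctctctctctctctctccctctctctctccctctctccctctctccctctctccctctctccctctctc
The first lay between genes at chr17:36621527-36621972, had a -log10 q of 60.1 and a fold of 7.54 over the local background, and held an AP-1 and a forkhead match. The second, at chr13:4560401-4560828, had a -log10 q of 42.8 and held no match to any of the 22 short motifs searched. The third, at chr9:13422535-13423208, ended in a long run of ct repeats, had a -log10 q of 29.4 and a fold of 4.58. Of the windows of all 5 week peaks, 9.70% held the AP-1 motif and 5.44% the forkhead motif.

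Of the motifs searched, the CTCF consensus showed the widest gap in percentage points between strong members and strong 5 week peaks also in another list, outside promoters. Shown next are 60 bases around the match in the 4 strong members outside promoters with the highest -log10 q among those with the CTCF consensus, with the 14 positions of the consensus in capitals. Both orientations occur, since the plus strand is printed.
Cnr2: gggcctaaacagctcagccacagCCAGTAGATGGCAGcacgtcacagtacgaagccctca
Cda: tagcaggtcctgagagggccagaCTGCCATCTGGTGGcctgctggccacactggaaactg
Wisp1: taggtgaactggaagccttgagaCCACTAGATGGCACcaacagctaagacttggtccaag
Gm10399: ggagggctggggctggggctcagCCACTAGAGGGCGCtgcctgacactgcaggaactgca
The peak near Cnr2, at chr4:135445855-135446167, had a -log10 q of 17.5 and a fold of 4.67. The peaks near Cda (chr4:137935057-137935422), Wisp1 (chr15:66735886-66736207) and Gm10399 (chr5:117757612-117757971) had values of 15.1, 14.3 and 13.2. The peak near Wisp1 lay in an intron and the other 3 lay between genes, all 4 more than 5000 bp from the nearest protein-coding start.

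The CTCF consensus was present in the central window of 249 of the 2500 strong members outside promoters, or 9.96% (95% interval 8.85 to 11.2). In strong 5 week peaks outside promoters that were also in another list it was present in 3.49% (3.28 to 3.71). Among the members the share rose with strength, from 0.107% at a -log10 q of 1 to 2, through 0.713% at 2 to 3 and 3.88% at 3 to 5, to 9.87% in the strong members, promoters included. In 5 week peaks also in another list the shares of the same 4 groups were 0.111%, 0.449%, 2.15% and 2.58%, so the weakest groups were alike. Within the open group of 5 or more, strength differed, with a median -log10 q of 6.41 in members and 10.9 in the others. Width differed as well, since strong members were narrower than strong peaks in all 3 lists, as given below. The 300 bp window covers less of a wide peak, and the part of width in this contrast was not tested. The match lay close to the middle of the peak: 212 of 249, or 85.1%, were within 50 bp of the midpoint, a stretch that covers 33.7% of the window, and the median distance was 17 bp.

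The share depended on which other list held the peak. Strong 5 week peaks outside promoters that were also in the WT list and not in the 1 week list held the consensus in 11.1%. Those also in the 1 week list and not in WT held it in 3.29%, and those in all 3 lists in 2.01%. Peaks outside promoters in the strong part of each whole list held it in 4.02% at 5 weeks, 1.52% at 1 week and 2.37% in WT. The cut of 5 was the same for these 3 shares although the lists differed in depth. Strong 5 week peaks missing from the 1 week list, whether in WT or not, thus held it most often, and strong peaks found at 1 week only held it in 1.36%, or 4 of 295. Differences in GC content moved with these groups, so the share was also taken within windows of like GC. Below 45% GC it was 5.21% in strong members against 0.852% in strong peaks also in another list. The values were 11.6% against 4.51% from 45 to 55% GC and 13.6% against 4.59% above. Strong peaks shared with WT and not with 1 week held it in 3.25%, 12.6% and 11.5% in the same ranges. The consensus was chosen after the data were seen. The shorter exact letters AGGGGGCGC, searched as the CTCF core, were in 2.40% of strong members outside promoters and in 0.923% of the others.

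**Figure D1:**
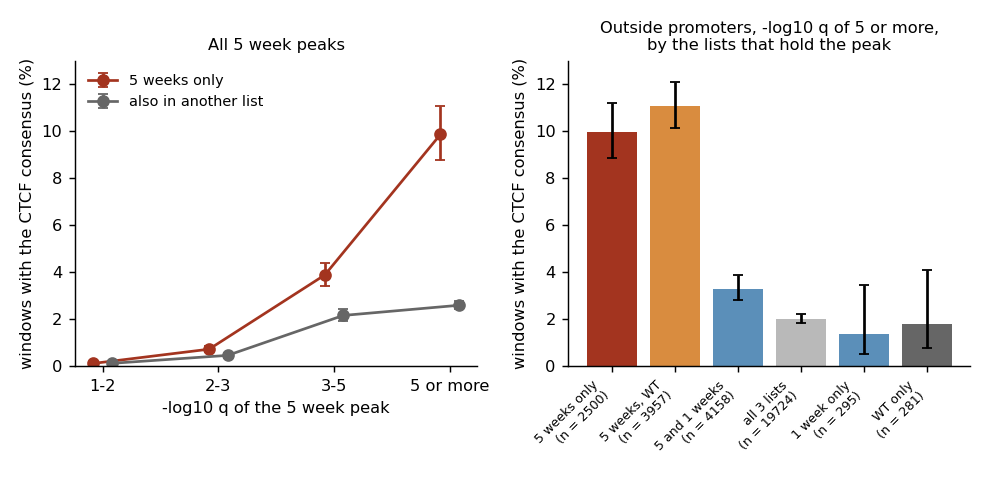
The left plot gives the percent of central 300 bp windows with the CTCF consensus by the -log10 q of the 5 week peak, for peaks found at 5 weeks only and those also in another list, with Wilson 95% intervals. The right plot gives it for strong peaks outside promoters by the lists that held them. Strong members reach 9.87% on the left, and the bars for 5 weeks only and for 5 weeks with WT stand at 9.96% and 11.1%, above the other 4.

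Strong members with the consensus differed little in strength from those without it. The median fold was 3.04 in the 249 with it and 3.03 in the 2251 without it, and the median -log10 q was 6.47 and 6.39. Those with the consensus lay more often between genes, 53.0% against 40.5%, and had a median GC content of 50.3% against 47.7%.

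Motifs of islet and stress factors were compared in the same way. The forkhead motif bound by Foxa factors was in 6.04% of strong members outside promoters and in 9.27% of strong peaks also in another list. The homeodomain motif TAATTA, recognised by Pdx1 and Nkx6-1 among others, was in 9.12% and 10.1%. The E-box CATCTG of the Neurod1 type was in 29.96% and 30.4%, and the MAF motif TGCTGAC in 8.32% and 8.18%. AP-1 was in 9.48% and 11.9%, while strong peaks found in WT only held it in 41.3%. The E-box CACGTG of the Myc and Arnt2 type was in 5.08% and 5.28%. Against members under a -log10 q of 5, strong members held some of these more often: TAATTA was in 6.18% of the weaker members outside promoters, forkhead in 4.43% and CACGTG in 3.63%. Both strands were searched in windows of the same length, and a match is a description of the letters in the window.

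Most members were weak. Their median fold over the local background was 2.07 and their median -log10 q 1.74, and the median width was 407 bp. Strong members had a median fold of 3.03, a -log10 q of 6.41 and a width of 302.5 bp, with about 33.5 reads piled up over a background of 9.99. Strong 5 week peaks found in all 3 lists had a median fold of 3.73, a -log10 q of 12.6 and a width of 839.5 bp. The strong members were thus narrower and rose less far above the background than peaks shared by all lists. A wide peak has more bases to share with another list, so the rule itself favours narrow members, and this contrast was not tested.

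The share of 5 week peaks found at 5 weeks only fell with each step in strength. It was 68.2% at a -log10 q of 1 to 1.5, 48.2% at 2 to 3, 26.0% at 4 to 5, 12.4% at 6 to 8 and 1.68% at 10 to 15. At 15 or more, 23 of 11903 peaks were members, or 0.193% (0.129 to 0.290). Beside this, the share found in all 3 lists went from 0.723% in the weakest group to 95.8% in the strongest.

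**Figure D2:**
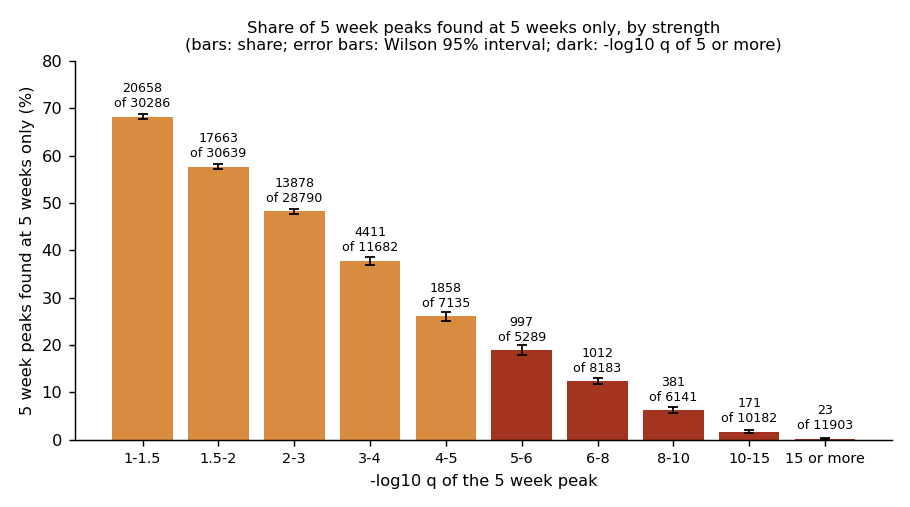
Bars give the percent of 5 week peaks on chromosomes 1 to 19 that overlapped no WT or 1 week peak, by -log10 q, with Wilson 95% intervals and the counts above. The share goes from 68.2% in the weakest group to 0.193% in the strongest, and the dark bars from 5 upwards hold the 2584 strong members.

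At the limit of 5, the weakest strong member had a -log10 q of 5.00 and a fold of 2.71, and the strongest member under it had 4.99858 and a fold of 2.82. There were 746 members from 4.5 to 5 and 578 from 5 to 5.5. At the limit on overlap, 236 members lay less than 20 bp from a WT or 1 week peak, and 354 peaks of the 5 week list were left out through an overlap of less than 20 bp. The median gap to the nearest peak of the other 2 lists was 4291 bp for all members and 4996 bp for the strong ones. Of the strong members, 122 (4.72%) had such a peak within 1000 bp. The lists hold called peaks only, so there is no value for WT or 1 week at these positions.

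The count of all members moved with depth. With the pileup and background of both Taf4 KO lists scaled to the WT floor and peaks under the lowest p of the WT list left out, 6438 peaks were found at 5 weeks only, and 5188 of the 61052 members (8.50%) were still among them. Of all 150230 peaks of the 5 week list, 50939 passed this scaling. The 41698 strong ones, members or not, all did. With all 3 lists kept only from a -log10 q of 5, the number of strong peaks found at 5 weeks only was 13145, since weak peaks of the other lists no longer counted.

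Members lay mainly away from promoters, here 1000 bp upstream to 100 bp downstream of a protein-coding start. Of all members 1.73% (1.63 to 1.83) overlapped a promoter, 3.12% had their midpoint in an exon, 35.2% in an intron and 59.95% between genes. Of the strong members 3.25% (2.63 to 4.01), or 84, overlapped a promoter, 5.80% lay in exons, 50.5% in introns and 40.4% between genes. Over all 5 week peaks the promoter share was 9.55%, and over all strong ones 27.2%. When an overlap had to reach 50% of both peaks, 9.41% of strong members lay at promoters, and when all lists began at a -log10 q of 5 it was 8.76%. Strong 5 week peaks found in all 3 lists overlapped a promoter in 33.9%. Strong peaks shared with WT and not with 1 week did so in 20.7%, and strong peaks shared with 1 week and not with WT in 2.62%. Peaks found at 1 week only overlapped a promoter in 0.694% and lay between genes in 73.4%.

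**Figure D3:**
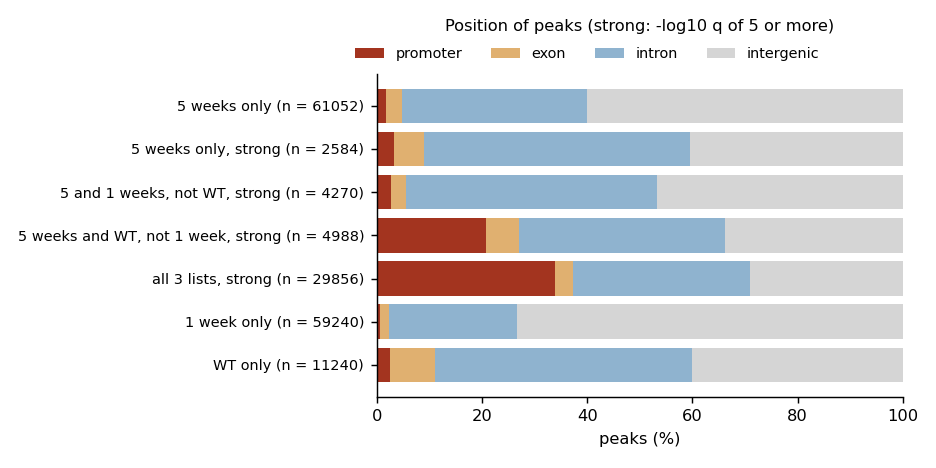
Stacked bars give the percent of peaks at promoters, in exons, in introns and between genes for peaks found at 5 weeks only, for strong 5 week peaks by the lists that held them, and for peaks found at 1 week or in WT only. The promoter part is 1.73% for all members and 3.25% for strong ones, against 33.9% for strong peaks in all 3 lists.

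Strong members lay nearer to genes than members as a whole. Their median distance to a protein-coding start was 21097 bp, against 75225.5 bp over all members. Within 1000 bp of a start lay 3.87% of strong members, against 28.7% of strong 5 week peaks also in another list. The shares were 14.4% against 7.25% from 1000 to 5000 bp, and 42.4% against 29.8% from 10000 to 50000 bp. There were 372 strong members from 1000 to 5000 bp of a start and 325 from 5000 to 10000 bp, whereas 8.10% of all members and 0.967% of strong ones lay 500000 bp or more away. The strong members were scattered: 76 (2.94%) had another within 5000 bp, and 635 (24.6%) within 50000 bp.

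The surroundings of members differed with strength. When the genome was divided into 5 groups of 1 Mb bins by GC content, from 35.7% to 38.5% in the poorest and 44.96% to 53.7% in the richest, all members had 18.6, 26.7, 27.5, 28.3 and 26.5 peaks per Mb. Strong members had 0.121, 0.352, 0.818, 1.48 and 2.64 per Mb, and 48.7% of them lay in the richest group. All 5 week peaks rose from 48.0 per Mb in the poorest group to 73.1 in the richest. The densities over all strong 5 week peaks are not given here, so whether the rise is particular to strong members was not tested. Peaks found at 1 week only ran the other way, from 56.5 per Mb in the poorest group to 3.15 in the richest. Peaks found in WT only rose from 0.4002 to 11.6. Over the window itself, the median GC content was 47.3% for all members, 48.0% for strong members and 52.3% for strong peaks in all 3 lists.

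**Figure D4:**
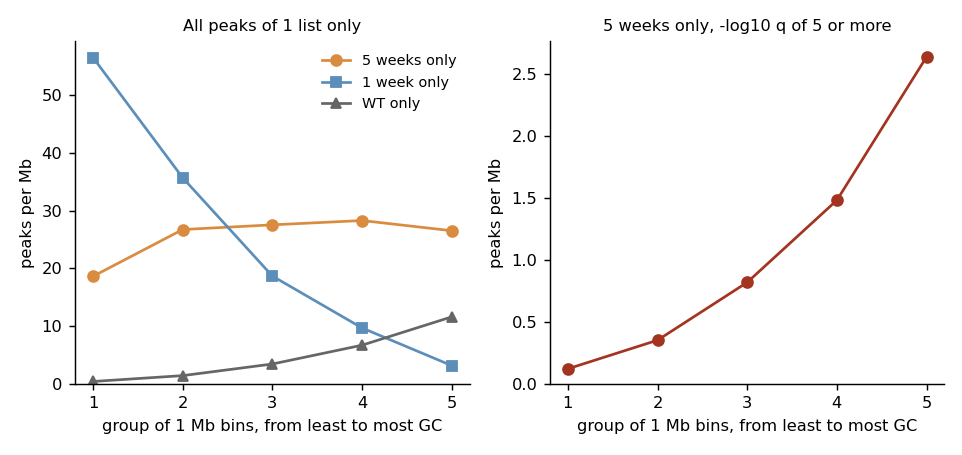
Points give peaks per Mb in 5 groups of 1 Mb bins ordered by GC content, on the left for peaks found in 1 list only and on the right for strong members. On the left the 5 week line stays between 18.6 and 28.3 while the 1 week line falls from 56.5 to 3.15, and on the right the strong members rise from 0.121 to 2.64.

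By chromosome, strong members were densest on chromosome 11, with 1.95 per Mb, and sparsest on chromosome 14, with 0.733. Chromosome 19 had the fewest members of any strength, 12.6 per Mb, and the highest share of strong ones among them, 10.7%. The Mb with the most strong members, 12, was chr2:165000001-166000000, which holds Cdh22, Eya2, Elmo2 and Zfp663. The Mb with the most members of any strength, 105, was chr12:108000001-109000000, and none of these was strong. The median Mb held 21 members, and 1263 of 2401 held no strong one.

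At promoters, 1038 of 21410 protein-coding genes (4.85%) had a peak found at 5 weeks only, and 85 (0.397%) had a strong one. The first count depended on the lists compared: it was 224 with depth scaled to the WT floor, 351 with the Taf4 KO lists cut to the number of WT peaks and 2271 with a reciprocal overlap of 50%, and the counts by gene list rest on the same rule. For 724 of the 1038, or 69.7%, no promoter of the gene had a peak in the WT or 1 week list. For 250 the WT list and for 257 the 1 week list held a promoter peak at another place of the same gene. The matching shares over all genes are not given here. Of the 85 genes with a strong one, 57 had no promoter peak in the other 2 lists and 26 had one in WT. Of the 84 strong promoter members, 35.7% lay in a window of at least 50% GC with a CpG ratio of 0.6 or more. This was below the 73.8% of strong promoter peaks in all 3 lists and above the 22.3% of the 112 shared with 1 week and not with WT.

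The 3 promoter members with the highest -log10 q were at Kat2a, Ggt7 and Mab21l3. Their central windows, without the parts inside annotated exons, are shown because they overlap or border a start, with the SP/KLF GC box (GGGCGG), the CTCF core letters, the MAF motif and the E-box CATCTG in capitals.
Kat2a: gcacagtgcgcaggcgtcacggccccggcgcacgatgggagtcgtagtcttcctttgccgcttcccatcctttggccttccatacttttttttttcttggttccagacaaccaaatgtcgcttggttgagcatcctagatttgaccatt
Ggt7: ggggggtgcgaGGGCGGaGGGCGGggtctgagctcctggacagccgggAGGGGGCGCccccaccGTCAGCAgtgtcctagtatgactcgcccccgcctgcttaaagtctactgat
Mab21l3: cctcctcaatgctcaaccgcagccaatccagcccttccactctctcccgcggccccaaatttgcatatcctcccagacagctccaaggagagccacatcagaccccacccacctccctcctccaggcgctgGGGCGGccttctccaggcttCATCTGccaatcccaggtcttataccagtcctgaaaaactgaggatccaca
Kat2a encodes the histone acetyltransferase Gcn5, which works in the SAGA complex. Its peak, at chr11:100573640-100573928 over the start of the gene (ENSMUSG00000020918), had a -log10 q of 13.7 and a fold of 4.19, and the nearest WT peak was 1993 bp away. The peak at Ggt7, a member of the gamma-glutamyltransferase family, had a -log10 q of 11.1 and a fold of 2.996 at chr2:155340286-155340814. Its local background was 2.06 times the floor of the list. The peak at Mab21l3, at chr3:101640033-101640364, had a -log10 q of 10.8 and a fold of 3.79, with no WT peak nearer than 14701 bp. The letters GGGCGG were in 39.3% of the 84 strong promoter members and in 58.6% of strong promoter peaks also in another list.

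The other 7 of the 10 strongest promoter members had a -log10 q from 9.07 to 10.8. They lay at Rasal2, a Ras GTPase-activating protein, Fcgrt, the neonatal Fc receptor, and Thrap3, a factor in RNA processing. Then came Ctf1, the cytokine cardiotrophin, Coro1a, an actin-binding protein of leukocytes, the zinc finger gene Zfp663, and Mab21l1. Of these, Zfp663 had the CTCF consensus in its window. The peak at Mab21l1 lay 51 bp from a WT peak and the other 6 lay 2905 bp or more from one, so 1 of the 10 depended closely on the overlap rule.

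Outside promoters, the 10 members with the highest -log10 q were nearest to H2-M10.4, Akr1c21, Maml2, Nox3, Gys2, Brd3, Gm3209, Ap4e1, Apoh and Armc4. Their -log10 q ran from 60.1 down to 18.4. Local backgrounds above 1.5 times the floor were found under 5 of them: H2-M10.4 (1.58), Maml2 (2.02), Brd3 (2.98), Gm3209 (2.22) and Armc4 (1.74). A high background marks places where reads gather over a wide stretch. Among all strong members, 167 (6.46%) had such a background, against 18.6% of strong 5 week peaks also in another list, and without them the median fold was 3.05. The peak near H2-M10.4 lay 331 bp from a 1 week peak. The peaks near Gys2 (chr6:142434237-142434625, -log10 q of 22.0, fold 5.25) and Nox3 (chr17:3840376-3840800, 22.7, fold 5.32) had backgrounds of 1.08 floors. Gys2 encodes liver glycogen synthase, and its peak lay 12802 bp upstream of the start and 20597 bp from the nearest WT peak.

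Of the protein-coding genes, 10900 were nearest to at least 1 member and 2140 (10%) to a strong one. For 328 there were 2 or more strong members and for 82 there were 3 or more. Those 82 had a median territory, the stretch of genome nearest to their starts, of 367.8 kb, against 45.3 kb over all genes. Pard3, which encodes a cell polarity scaffold, had the most, 6 strong members among 39. Of the 6, 5 lay in introns of Pard3, with a -log10 q from 5.12 to 9.81 and a fold from 2.84 to 3.63. Car10, Adra2a and Fry had 5 strong members each. Adra2a encodes an adrenergic receptor that inhibits insulin secretion. Its nearest members lay 34705 to 501574 bp from its start, the closest in an intron of Shoc2.

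The remaining genes of the 10 with the most strong members were Phactr1, Zfp148, Gm10293, Kcnip4, Cdh26 and Kcnh5, with 4 each. Zfp148 had the smallest territory of the 10, 190.4 kb, with 21.0 strong members per Mb. Kcnip4 and Kcnh5, which encode a potassium channel partner and a potassium channel, had 2.93 and 8.07 per Mb. The 10 were picked by their number of strong members, so these densities are not set against those of other genes. Of the 10 genes, 8 had promoter peaks in all 3 lists, and Gm10293 and Cdh26 had none. The share over all genes is not given here, so this is a description of the 10 only.

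Taf4 (Taf4a in the annotation, ENSMUSG00000039117) was the deleted gene. It held 2 members in its introns, at chr2:179677101-179677362 and chr2:179708468-179708828, with a -log10 q of 2.25 and 3.81. Neither was strong. The second had a background of 1.502 floors and a WT peak 824 bp away.

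Gene lists were counted against 4.85% of all genes with a promoter member and 10% nearest to a strong one. Of 41 beta cell genes, 4 had a promoter member: Nkx2-2, Trpm5, Cacna1c and Cacna1d. Nkx2-2 encodes a homeodomain factor of beta cells, and its peak, 1019 bp upstream of the start, was the only strong one, with a -log10 q of 5.12 and a fold of 2.34 over a background of 1.98 floors. The peak at Trpm5, a cation channel of beta cells, had a -log10 q of 4.69 and held the CTCF consensus. Those at the calcium channel genes Cacna1c and Cacna1d had values of 2.31 and 1.96. Cacna1c also had a promoter peak at another place in the WT and 1 week lists.

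Of the 41 beta cell genes, 17, or 41.5%, were the nearest gene of a strong member. The list had wide territories, with a median of 94.9 kb, and many strong peaks of any kind. Per Mb of territory there were 3.25 strong members, against 1.05 over all genes, and 36.8 strong 5 week peaks also in another list, against 15.8. Of all strong 5 week peaks near beta cell genes 8.10% (5.59 to 11.6) were members, and the value over all genes, 6.20%, lay within that interval. Examples, named after their values were seen, are Ins1 and Nkx6-1 with 3 strong members each and Slc2a2, the glucose transporter Glut2, with 2. The members of Nkx6-1 lay 4428 bp upstream and 78610 and 99215 bp downstream of the start, with a -log10 q of 6.24, 6.41 and 5.56. Those of Ins1 were 104833 bp or more away. The member near Pdx1, 9011 bp upstream of the start and inside an annotated intron, had a -log10 q of 7.50 and a TAATTA match, and that near Abcc8, which encodes the sulfonylurea receptor, lay 1779 bp upstream with 7.63.

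Of 13 alpha cell genes, Foxp1 and Loxl4 had a promoter member, with a -log10 q of 3.08 and 1.94. Foxp1 also had a promoter peak at another place in the WT and 1 week lists. None of the 12 delta cell genes, 6 PP and epsilon cell genes and 18 progenitor and disallowed genes had a promoter member. In all 4 of these endocrine and progenitor lists together, no promoter member was strong.

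Genes of other pancreatic and blood cells had weak promoter members. Of 18 stellate and fibroblast genes, 4 had one: Des, Col1a2, Thy1 and Pdgfrb, with a -log10 q of 3.996, 3.40, 2.17 and 1.40. Of the 4 stellate markers, 0 had a promoter peak in the WT and 1 week lists and 3 had one at 5 weeks, all found at 5 weeks only, and Col1a1 had none in any list. Of 19 endothelial genes, Eng, Egfl7, Cdh5 and Emcn had one, with values from 1.36 to 2.36. Egfl7 also had a promoter peak at another place in the WT list. The 4 endothelial markers had promoter peaks in 1, 2 and 3 cases in the WT, 1 week and 5 week lists. Of 20 acinar genes Ptf1a, Reg1 and Gp2 had one (1.59 to 2.20), of 14 duct genes Onecut1 (2.67), and of 21 immune genes Csf1r (1.37). The 5 acinar markers had 0, 0 and 1 promoter peaks, the 4 duct markers 2, 2 and 3, and the 4 immune markers 0, 2 and 1. No promoter member of these 5 lists was strong. In bulk islets, more cells of a type and more accessible chromatin per cell cannot be told apart. The depth of the 5 week list, 2.57 times that of WT, moved with these counts, and its part in them was not tested.

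Developmental genes also had weak promoter members. Of 39 Hox genes 8 had one, among them Hoxa5, Hoxb9 and Hoxc5 with a -log10 q of 3.27, 2.72 and 2.46. None of the 8 had a promoter peak in the WT or 1 week list. Of 96 other developmental factor genes 12 had one, with Dlx1 (4.15), Pax2 (3.24), Lhx2 (2.29) and Msx2 (2.06) highest, and 10 of the 12, not Lhx2, had none in the other lists. Of 33 synapse and adhesion genes 7 had one, among them Nrxn2 (4.26), Nrxn3 (2.70), Gria1 (1.91) and Cntn5 (1.58), and 5 of the 7 had another promoter peak in WT or at 1 week. These had long territories, with a median of 1247.7 kb, and 10 were nearest to a strong member. Among genes picked for their roles in other tissues Gh and Krt14 had one, and that at Gh, 992 bp upstream of the growth hormone start, was strong with a -log10 q of 5.97 and a fold of 3.01.

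Genes of TFIID, chromatin remodellers and stress responses had weak promoter members. Of 14 TFIID genes Taf3 had a promoter member, with a -log10 q of 1.68. Of 15 genes of NuRF, Chd and other remodellers, Chd2 (2.71) and Bptf (2.54) had a promoter member. In that list 5 genes, or 33.3% against 10% of all genes, were nearest to a strong member. Arid1b had 4 and Smarca2 had 2 of these strong members, and both are SWI/SNF genes, not NuRF or Chd genes. Of all strong 5 week peaks near the remodeller genes 7.69% (4.10 to 13.98) were members, an interval that holds the 6.20% over all genes. Of 20 factor genes taken from the study's footprints and regulons, Foxp1 had one. Of 22 immediate early and AP-1 genes Npas4 (3.89), of 23 stress and inflammation genes Vcam1 (1.43) and Reg3b (1.42), and of 15 unfolded protein response genes 0 had one. None of these promoter members was strong. In the WT list, Taf3, Chd2, Bptf, Foxp1 and Npas4 had a promoter peak at another place. Their WT values of -log10 q were 13.1, 43.9, 8.29, 3.86 and 9.03. Vcam1 and Reg3b had no promoter peak in the WT or 1 week list.

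**Figure D5:**
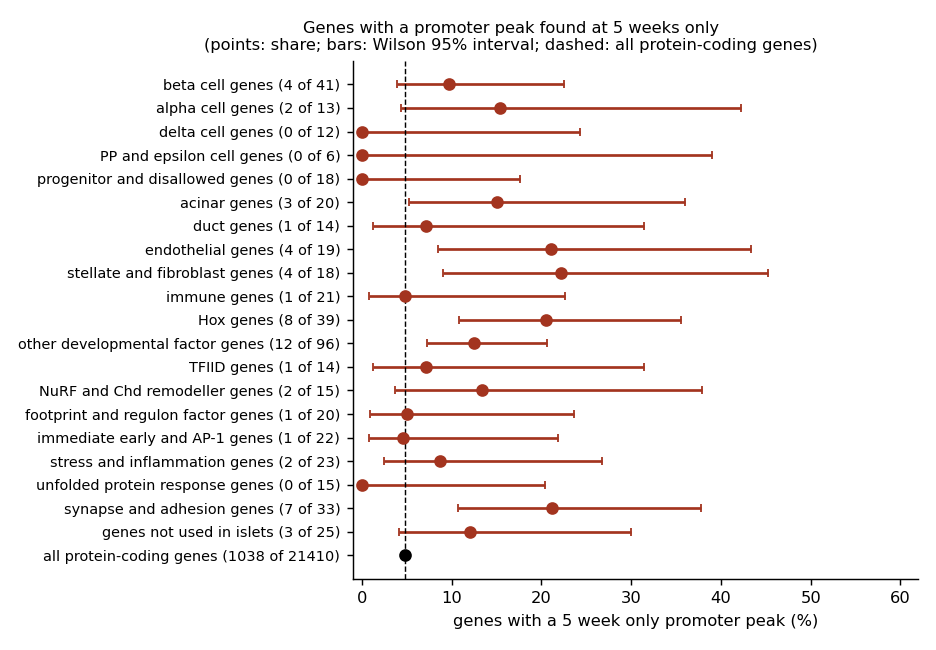
Points give the percent of genes in each list with a promoter peak found at 5 weeks only, with Wilson 95% intervals and counts in the labels, and the dashed line marks the 4.85% over all protein-coding genes. The stellate, synapse and Hox lists lie to the right of the line with 4 of 18, 7 of 33 and 8 of 39, and 4 lists stand at 0.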

How the data were processed

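Accessible chromatin was profiled in 3 libraries, 1 each of WT, Taf4 KO at 1 week and Taf4 KO at 5 weeks, grouped by their genotype and time labels. Per the labels, the authors used bcl2fastq 2.17.1.14, Bowtie 1.0.0 and MACS2 2.1.1 on mm9, and per the study's methods only reads with a unique place were kept. The deposited lists are broad peaks called for each library on its own. For each peak, the deposited fold is a ratio of its pileup to its local background, and the deposited -log10 p and -log10 q are those of the authors' caller. The authors' whole-number score was not used. A control library, duplicate removal and a shift to the insertion site are not given in the sources used here. Unique mapping leaves out repeats, and the limits of a broad peak decide its midpoint and window.

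Peaks on chromosomes 1 to 19 were intersected with bedtools 2.31.1, with 1 shared bp counted as overlap. Peaks on X and Y are described separately, and 2 mitochondrial peaks in each list were left out. Sequence came from NCBIM37, the assembly of mm9, read with pysam 0.24.0, and gene models from the GENCODE annotation of that assembly, with 44018 protein-coding starts. Promoters reached from 1000 bp before a start to 100 bp after it. Other peaks were placed by their midpoint, and the nearest gene was that of the nearest start. Read totals are not held in peak lists. The background and pileup of each peak were solved from its fold and Poisson p, which assumes the same read extension in all libraries. Motifs were searched on both strands of the central 300 bp, and GC content was taken from the same window. Of 501 symbols in 20 gene lists, 484 matched a protein-coding gene on these chromosomes. Promoter sequences of another assembly were not used. The scripts were tested on simulated peak lists.

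The members, lists and motifs were chosen with earlier results of these data known. With 1 library per group no test was made, and Wilson 95% intervals are given for shares. Named genes were Taf4, those of the 10 strongest promoter and 10 strongest other members, the 10 genes nearest to the most strong members, every beta, alpha and delta cell gene with a promoter member, and up to 4 of each other list by -log10 q, of which 2 genes are not reported here. Alternatives changed the overlap rule, the -log10 q, the length and depth of the lists, the chromosomes, the promoter window and the gene types.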

Additional observations from a re-analysis of the deposited data

Results flagged for a closer look

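Chromosomes X and Y lay outside the comparisons and are given here as data that no comparison used. The 5 week list held 44 peaks on chromosome Y, all of them found at 5 weeks only and 22 of them strong, while the WT and 1 week lists held 0. On chromosome X, 181 peaks were found at 5 weeks only, 46 of them strong. The 5 week list held 1451 peaks on chromosome X in all, against 1272 in WT and 12225 at 1 week. This is 8.95 per Mb at 5 weeks, 7.85 in WT and 75.4 at 1 week, whereas chromosomes 1 to 19 had 62.9, 24.95 and 57.8. The share of 5 week peaks on X that were found at 5 weeks only was 12.5%, against 40.6% on chromosomes 1 to 19. The labels do not give the sex of the animals, so these values were kept out of all counts of members. Any difference in sex between the libraries cannot be told apart from genotype and time. This holds for every comparison here, absence from the 1 week list included.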

How the results depend on the processing

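Of 64 values computed under another setting, 35 stayed close to the reported value, meaning within 1.5 times for a count, within the 95% interval for a share, within the quartiles for GC content and within 0.1 for the fold. The other 29 moved, and a change of direction was not looked for. No paired analysis was possible because each group had 1 library, and for the same reason leaving out a library was not possible. Median GC content of all and of strong members stayed within its limit under all 7 settings tried for it, and was at most 49.3%. That limit, 43.3% to 51.0% for all members, is wide for a median, so these values say little about stability. Every result stayed close when X and Y were kept or when no WT or 1 week peak was allowed within 1000 bp.

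With a reciprocal overlap of 50%, there were 6417 strong members, promoter shares of 2.63% of all and 9.41% of strong members, 2271 genes with a promoter member, and the CTCF consensus in 5.93% of strong members outside promoters. With all lists cut at a -log10 q of 3 there were 18704 members, 6043 of them strong, with promoter shares of 4.99% and 5.64% and CTCF in 8.03%. Cut at 5 there were 13145, all strong, with a promoter share of 8.76% and CTCF in 6.80%. With the Taf4 KO lists cut to the number of WT peaks there were 11230 members, a promoter share of 3.06%, 351 genes and CTCF in 8.83%. With depth scaled to the WT floor there were 6438 members, a promoter share of 3.37% and 224 genes. CTCF, added after the data were seen, was in 8.89% of strong members outside promoters. Here and in the setting before, strong still meant a deposited -log10 q of 5 or more, and all 2584 strong members were kept. These CTCF shares are therefore not shares of peaks that are strong at equal depth. A promoter window of 2000 bp upstream and 500 bp downstream gave 2.74%, 5.88% and 1592 genes, and starts of all gene types gave 3.18%, 5.30% and 1950 genes. The exact CTCF core letters gave 2.40%. In strong 5 week peaks also in another list the CTCF share was 2.21% to 3.57% under the settings that kept the consensus, and so was below that of strong members in each. Why a value moved was not tested beyond what each setting's construction fixes. Depth limits what the lists can show: 5188 of the 61052 members remained with depth scaled to the WT floor, and the lists give no signal where no peak was called.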
